A study of Mus musculus with 4 samples.

Results

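Ribosomal proteins and translation factors are the genes described here. They were found by symbol in 5 supplementary tables of the study, whose entries were joined by probe name to the array files. A symbol counted if it began with Rpl, Rps, Mrpl or Mrps followed by a digit, p or a, or with Eif or Eef followed by a digit, and Rps6k kinases were left out. The rule found 85 genes among the 25030 genes with a deposited value, of which 5619 could be named. There were 26 proteins of the cytosolic ribosome, 35 of the mitochondrial ribosome, 23 initiation and elongation factors, and Rps19bp1, a binding partner of the ribosomal protein Rps19 that is given on its own. The tables were held in part.

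The study was about how genes in mouse embryonic stem (ES) cells respond to the induction of transcription factors, and these arrays add cultures treated with inhibitors of signalling pathways. Cells of B6R(5), a line from C57BL/6, were grown without feeders on gelatin, and RNA of each culture was hybridised with Cy3 label against a common Cy5-labelled reference, which the labels give as a universal pool of mouse cell lines and the methods as such a pool mixed with RNA of MC1 cells. All 4 arrays lay on 1 slide, each condition had 1 array, and dyes were not exchanged. The treatments began 24 hr after plating and lasted 48 hr, with 0.2% DMSO in every culture. The control received DMSO alone. The other cultures received in addition the FGF receptor (FGFR) inhibitor PD173074 at 100 µM, the MEK inhibitor PD98059 at 25 µM, or BIO, an inhibitor of glycogen synthase kinase (GSK), at 2 µM. These doses are those of the methods, and another table of the study prints the same numbers in mM. The 3 comparisons with the control share its array, so their values are not independent of each other, and with no replicates no test was made.

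Cytosolic ribosomes translate the messages of the nuclear genome, while mitochondrial ribosomes, built from another set of nuclear-encoded proteins, translate the few messages of the mitochondrial genome. Initiation factors bring the capped message, the initiator tRNA and the small subunit together, and elongation factors deliver tRNAs and move the ribosome along. In growing cells the messages of cytosolic ribosomal proteins are abundant, and many begin with a pyrimidine tract through which the TOR pathway controls their translation.

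Each array held 43451 spots. The scanner software marked the Cy3 signal as clearly above its background for 17331 genes on the control array, 17407 with the FGFR inhibitor, 17427 with the MEK inhibitor and 16923 with the GSK inhibitor. Median Cy3 signals over all spots were 73.8, 79.0, 81.7 and 78.4 intensity units on these arrays. All 85 genes were well above background in both channels on all 4 arrays, with 0 saturated spots. The median Cy3 signal on the control array was 39570 units for the probes of the cytosolic ribosome, 6798.5 for those of the mitochondrial ribosome and 10066 for the factors. Since probes bind differently, these signals are not levels that can be set against each other gene by gene.

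Rpl13a, the large subunit protein chosen as marker of the group, had a bright probe, with Cy3 signals of 60423 units on the control array, 61201 with the FGFR inhibitor, 65297 with the MEK inhibitor and 49530 with the GSK inhibitor. The labelled cell type was checked with the markers of pluripotency that could be named. On the control array the log2 ratio of ES cell to reference RNA was 2.97 for Tcfcp2l1, 2.20 for Prdm14 and 4.01 for Gbx2, all transcription factors of pluripotent cells. Sox17, a transcription factor of endoderm, also had a positive log2 ratio, 2.10. The SD of the log2 reference signal over the 4 arrays was 0.61 for Gbx2, 0.28 for Tcfcp2l1 and 0.08 for Prdm14. The median of this SD over all genes was 0.06, so the ratio of Gbx2 above all rests on an unsteady reference signal.

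Most of the genes came from a table that lists genes in ascending order of how strongly they responded on other arrays, of ES cells in which single transcription factors were induced. Of the 85 genes, 77 were named through it and 8 only through other tables. The members are thus mostly genes that changed little in those other experiments, which is a property of how they were found. Values over all genes are therefore often given beside values over the other 1917 genes named through the same table. Some comparisons give all genes alone. Probes of 60 bases may also bind close relatives or processed pseudogenes, as with Rpl22l1 and Rpl22, Rps27l and Rps27, Rpl36a and Rpl36al, Eif4a1 and Eif4a2, or Eif2s3y and Eif2s3x, and their share of a signal was not tested.

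In ES cells treated with DMSO alone, the median log2 ratio to the reference was 0.83 for the factors, 0.35 for the cytosolic ribosome and 0.37 for the mitochondrial ribosome, against 0.05 over all genes and 0.21 over the other genes of the same table. Median centring in place of loess turned the medians of both ribosomes to negative values, -0.24 and -0.19, with a median of -0.27 over all genes, while that of the factors was 0.31. The order of the classes depended on membership, since the 8 genes not named through the ordered table gave 0.49 for the factors, 0.84 for the cytosolic and 0.78 for the mitochondrial ribosome. At 2-fold, 21 of the 85 genes were higher in ES cells than in the reference, beside 18.4% of all genes, and 6 were lower, beside 19.7%. The 21 comprised 5 genes of the cytosolic ribosome, 8 of the mitochondrial ribosome and 8 factors, and the 6 comprised 3 genes of each ribosome and 0 factors.

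Within the cytosolic ribosome, the highest log2 ratios on the control array were those of the large subunit proteins Rpl7 and Rpl13a, both 1.32, and of the small subunit protein Rps16, 1.21. The lowest were those of Rpl41, a very short basic protein of the large subunit, at -2.49, and of Rps15 and Rpl35, at -1.09 and -1.06. The order covered both subunits, with high and low probes in each. Within the mitochondrial ribosome, the large subunit proteins Mrpl4, Mrpl15 and Mrpl55 had log2 ratios of 1.99, 1.61 and 1.54. At the other end were Mrps15, Mrpl54 and Mrps33, at -1.19, -1.19 and -1.09.

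Among the factors, Eif3b, a scaffold subunit of the initiation factor eIF3, had the highest log2 ratio on the control array, 2.25. It was followed by Eif4a1, the helicase that unwinds the start of messages, at 1.89, and by Eif5, which makes eIF2 hydrolyse its GTP at the start codon, at 1.58. Eif3c and Eif3h, also subunits of eIF3, stood below the reference at -0.51 and -0.22, so subunits of the same complex lay on both sides of it. Eef1b2, an exchange factor for the elongation factor eEF1A, had a log2 ratio of -0.39. A dye bias of a probe is part of each of these ratios.

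**Figure D1:**
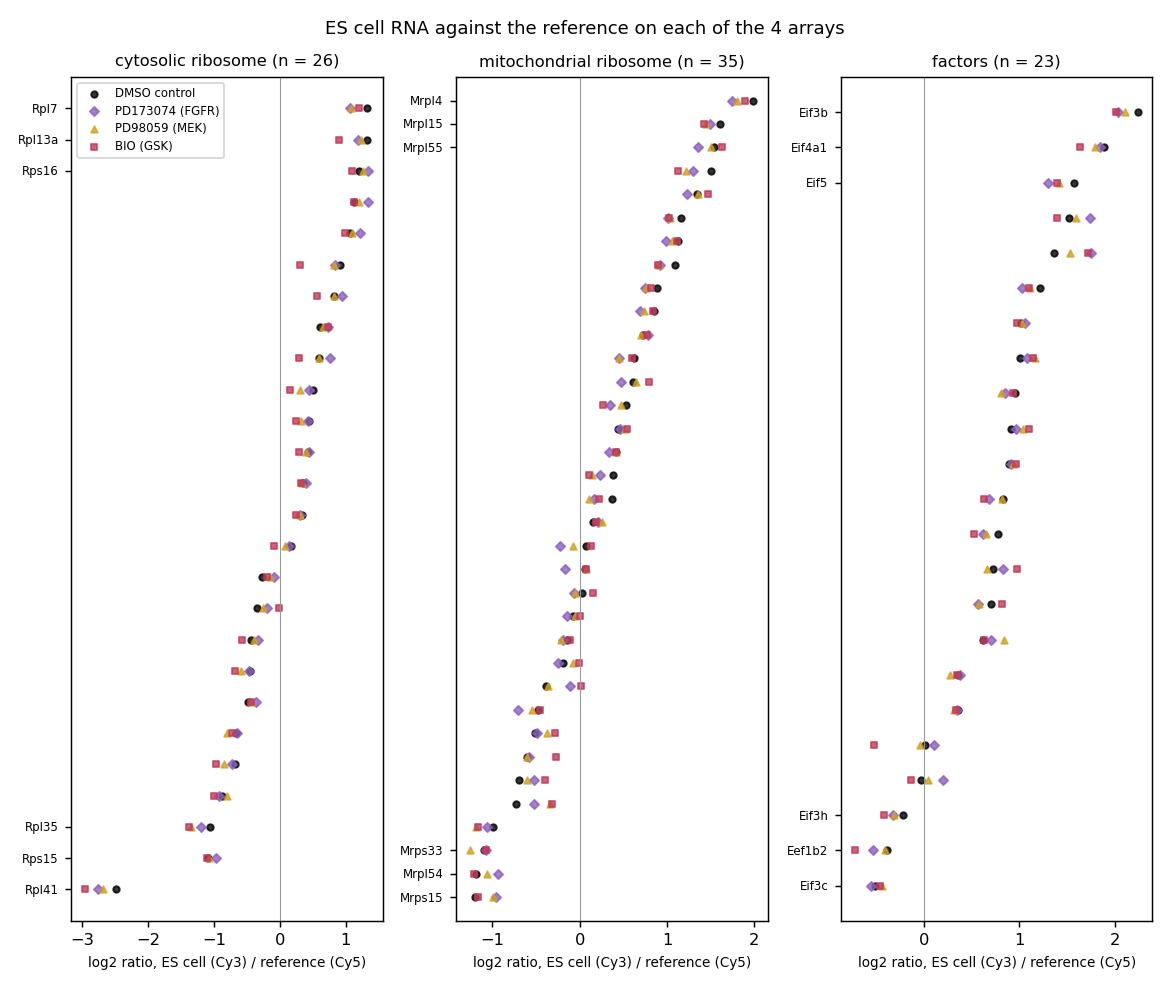
Log2 ratio of ES cell (Cy3) to reference (Cy5) RNA of each gene of the cytosolic ribosome, mitochondrial ribosome and factors on the 4 arrays, with genes in the order of the control array, 1 symbol per array and names for the 3 highest and 3 lowest genes of each class. The ratios on the control array ran from -2.49 for Rpl41 to 2.25 for Eif3b, and the 4 symbols of a gene lie close together beside the distances between genes.

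The 4 arrays differed little for these genes. Over the 4 arrays the median SD of log2 Cy3 signal was 0.078 for the cytosolic ribosome, 0.099 for the mitochondrial ribosome and 0.092 for the factors, against 0.121 over all genes and 0.103 over the other genes of the same table. The SD of the reference channel, which held the same RNA on every array, had medians of 0.043, 0.055 and 0.059 for these classes. For 64 of the 85 genes, or 75.3%, the Cy3 signal varied more than the reference channel, compared with 81.2% of all genes.

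With the FGFR inhibitor, 0 of the 85 genes changed 1.5-fold (log2 0.585) in either direction, while 2.77% of all genes were higher and 2.93% lower by that much. The count at 2-fold was also 0, beside 1.39% of all genes. At a smaller threshold, a log2 fold change of 0.322, Eif4e2 was the 1 gene that was higher, beside 7.87% of all genes, and 0 were lower, beside 9.43%. In the table through which most were named, 0.156% of the other genes changed 1.5-fold, a share near that of the 85 genes.

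With the MEK inhibitor, 0 of the 85 genes changed 1.5-fold, beside 0.582% of all genes higher and 0.469% lower, and 0 changed 2-fold, beside 0.0832%. At the smaller threshold, Mrpl43 was the 1 gene that was higher, beside 3.9% of all genes, and 0 were lower, beside 4.42%. In the same table, 0.0522% of the other genes changed 1.5-fold.

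With the GSK inhibitor, 1 of the 85 genes, Rps19bp1, was higher by 1.5-fold, beside 3.01% of all genes, and 1, Rpl22l1, was lower, beside 3.53%. Both lay close to the threshold and did not pass it with the processed signals of the scanner software, and Rpl22l1 did not pass it under median centring or in Cy3 alone. At 2-fold the count was 0, beside 1.43% of all genes, and 1.04% of the other genes of the same table changed 1.5-fold. At the smaller threshold 6 genes were higher, beside 10.5% of all genes: Rps19bp1, Mrpl43, Mrpl49, Eif4e2, Mrps21 and Rpl31. At that threshold 7 were lower, beside 11.7%: Rpl22l1, Eif4a2, Rpl41, Rpl13a, Mrps14, Rpl35a and Eef1b2. Mrps21 and Rpl35a are named for these counts, after their values were seen.

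**Figure D2:**
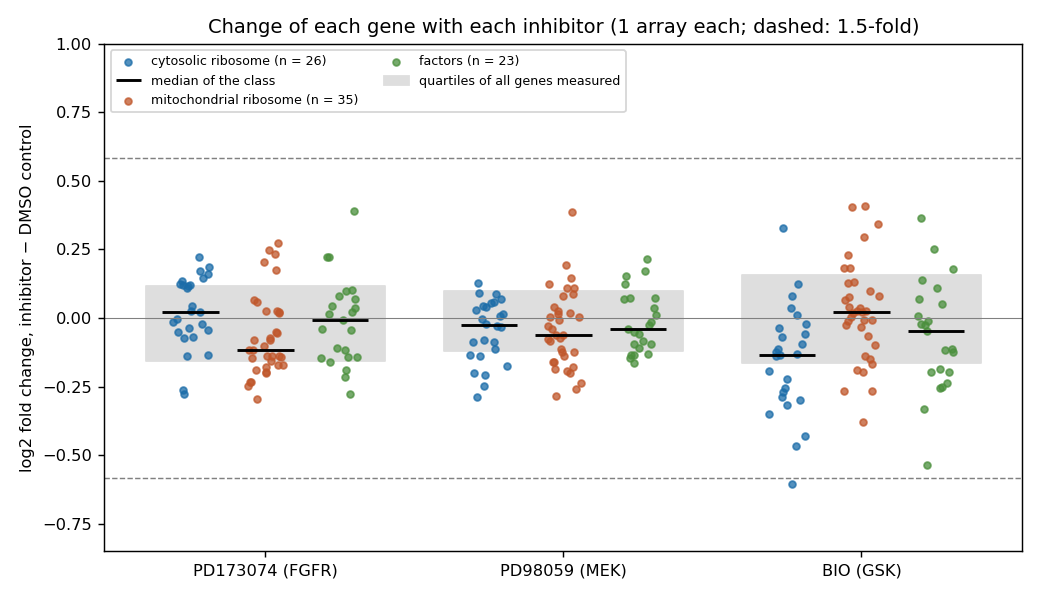
Log2 fold change of each gene, inhibitor minus DMSO control, for the cytosolic ribosome (26 genes), mitochondrial ribosome (35) and factors (23), with black lines at the class medians, grey bands for the quartiles of all genes and dashed lines at 1.5-fold. The cytosolic ribosome has a median of -0.13 with the GSK inhibitor, which kept its sign in all 13 alternatives, not all of which could change it. Rpl22l1 is the 1 point outside the dashed lines.

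The cytosolic ribosome had a median log2 fold change of -0.13 with the GSK inhibitor. Below 0 were 21 of its 26 genes, or 80.8%, against 50.6% of all genes and 45.8% of others of the same table. The median kept its sign under all 13 alternatives of processing and membership. It ran from -0.16 to -0.04 over them, the latter under median centring, and relative to the median of all genes from -0.15 to -0.08. Here and below, not every alternative could move a value. The filters on background and the scaling between arrays leave ratios of these bright genes as they are. The deposited log10 table nearly repeats the fold changes of the processed signals. The medians were 0.02 with the FGFR inhibitor and -0.03 with the MEK inhibitor, and each turned its sign in 1 of 13 alternatives, the first to -0.11 for the 2 genes not named through the ordered table and the second to 0.10 under median centring. For those 2 genes the GSK inhibitor gave -0.08, so it was not the lowest of the 3. All genes had medians of -0.02, -0.01 and -0.00 with the FGFR, MEK and GSK inhibitors, and the other genes of the same table -0.02, -0.01 and 0.02. With median centring the median of all genes with the MEK inhibitor was 0.10, and relative to it the cytosolic ribosome lay lower, as it did in all 13 alternatives.

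For 19 of the 26 genes of the cytosolic ribosome, or 73.1%, the array with the GSK inhibitor had the lowest log2 ratio of the 4, compared with 28.7% of all genes and 25.5% of the other genes of the same table. Since these probes are bright, they were also set beside genes of like signal. The brightest of 20 groups of Cy3 signal held 18 of the 26, whose median log2 fold change with the GSK inhibitor was -0.12, while the 824 genes of that group had a median of -0.02.

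The cytosolic ribosome was also split by subunit, after the values were seen. The 17 large subunit genes had a median log2 fold change of -0.19 with the GSK inhibitor. Below 0 were 16 of them, against 50.6% of all genes and 45.8% of others of the same table. The median was negative in all 11 alternatives, running from -0.20 to -0.10. With the FGFR inhibitor the large subunit median was -0.02 and with the MEK inhibitor -0.09, and each turned its sign in 1 of 11 alternatives. The 9 small subunit genes had a median of 0.12 with the FGFR inhibitor and 0.04 with the MEK inhibitor. Each time 8 of 9 were above 0, against 46% and 47.3% of all genes and 45.6% and 46.9% of others of the same table. Both medians were positive in all 11 alternatives, that with the MEK inhibitor running from 0.015 to 0.156. With the GSK inhibitor the small subunit median was -0.02, which kept its sign in 8 of 11 alternatives. The array with the FGFR inhibitor had the highest log2 ratio for 7 of the 9 small subunit genes, compared with 23.5% of all genes. All these changes rest on the same control array, which had the highest log2 ratio for 10 of the 17 large subunit genes, compared with 28.6% of all genes, and the lowest for 4 of the 9 small subunit genes, compared with 24.2%. Between the GSK and FGFR inhibitor arrays, without the control, the subunits had like values. Median log2 differences (GSK minus FGFR inhibitor) were -0.19 for the large subunit and -0.21 for the small subunit. Below 0 were 15 of 17 large and 8 of 9 small subunit genes, against 46.8% of all genes and 41.2% of others of the same table. Both medians were negative in all 10 alternatives, running from -0.19 to -0.07 and from -0.21 to -0.13.

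**Figure D3:**
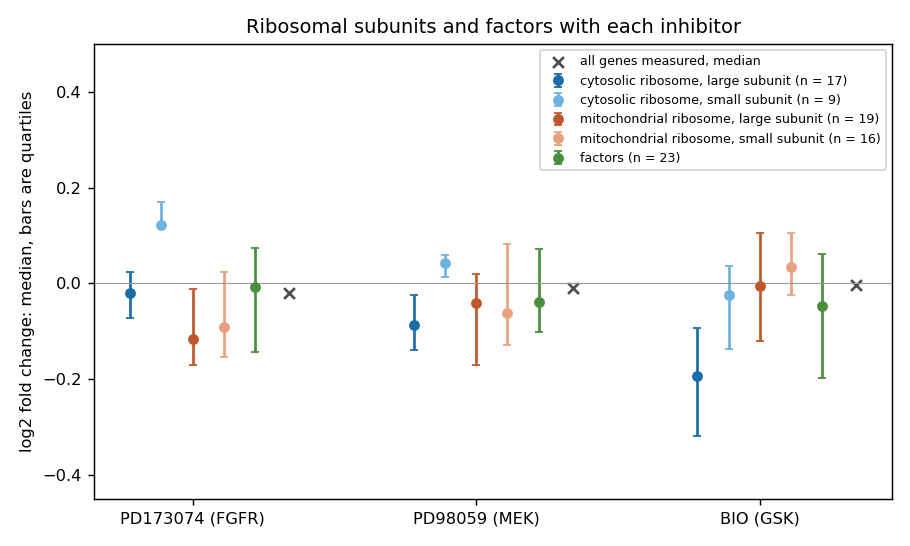
Median log2 fold change with each inhibitor for the subunits of both ribosomes and for the factors, with bars for the quartiles over genes and crosses for the median of all genes. The large subunit of the cytosolic ribosome lies at -0.19 with the GSK inhibitor and the small subunit at 0.12 with the FGFR inhibitor. Both kept their sign in all 11 alternatives, not all of which could change them.

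Rpl22l1, a paralog of the large subunit protein Rpl22, had log2 ratios of 0.91 on the control array, 0.84 with the FGFR inhibitor, 0.83 with the MEK inhibitor and 0.30 with the GSK inhibitor. The first 3 arrays were close together and the array with the GSK inhibitor stood below them. The log2 fold changes were -0.07, -0.08 and -0.60, and the last passed 1.5-fold. Over the alternatives it ran from -0.61 to -0.48.

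Rpl13a had log2 ratios of 1.32 on the control array, 1.19 with the FGFR inhibitor, 1.23 with the MEK inhibitor and 0.89 with the GSK inhibitor. Again the array with the GSK inhibitor was the low one. The log2 fold changes of -0.13, -0.09 and -0.43 did not pass 1.5-fold, and the value with the MEK inhibitor turned to 0.01 in 1 of 8 alternatives. Rpl41 had log2 ratios of -2.49, -2.76, -2.69 and -2.95 on the control, FGFR, MEK and GSK inhibitor arrays, lowest on the last and highest on the control array.

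Rpl35 and Rpl7 were further large subunit genes with low values. Rpl35 had log2 fold changes of -0.14, -0.29 and -0.32 with the FGFR, MEK and GSK inhibitors. Rpl7 had -0.26, -0.25 and -0.12, so its lowest values were not with the GSK inhibitor. Rpl31 was the large subunit gene that went the other way, with log2 ratios of -0.34, -0.20, -0.26 and -0.02 on the control, FGFR, MEK and GSK inhibitor arrays and a log2 fold change of 0.33 with the GSK inhibitor.

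In the small subunit, Rps3, which lines the channel where the message enters, had log2 fold changes of 0.19, 0.13 and 0.08 with the FGFR, MEK and GSK inhibitors, and Rps7 had 0.22, 0.09 and 0.01. Both were highest on the array with the FGFR inhibitor. Rps27l, a paralog of Rps27, had log2 fold changes of 0.12, 0.05 and 0.12. None of these values passed 1.5-fold.

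Rps19bp1, known also as a regulator of the deacetylase SIRT1, had log2 ratios of -0.46 on the control array, -0.40 with the FGFR inhibitor, -0.38 with the MEK inhibitor and 0.13 with the GSK inhibitor. It lay below the reference on the first 3 arrays and above it on the last. The log2 fold changes were 0.07, 0.08 and 0.59, the last of which passed 1.5-fold and ran from 0.58 to 0.72 over the alternatives. The robust SD of log2 fold changes with the GSK inhibitor among genes of like signal was 0.27, and 0.25 for the group that holds Rpl22l1.

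Bases of the probes behind the values described most closely are printed to show what was hybridised, the first 30 of the 60 bases of each in the deposited files.
Rpl13a: accaagtaccctattctgcagctatgaaaa
Rpl22l1: gaagtccacctggaggtttcatttggacct
Rps19bp1: tgaagaagacttccagaagttccagaggga
Eif4a2: aggattcttcgtcacattgagactttctac

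The mitochondrial ribosome had a median log2 fold change of -0.12 with the FGFR inhibitor, which was negative in all 12 alternatives. Below 0 were 24 of its 35 genes, or 68.6%, against 54% of all genes and 54.4% of others of the same table. With the MEK inhibitor the median was -0.06, turning to 0.10 under median centring, where the median of all genes was also 0.10. With the GSK inhibitor the median was 0.02, and it turned to -0.08 for the genes not named through the ordered table. Above 0 were 20 of 35 genes, or 57.1%, against 49.4% of all genes and 54.2% of others of the same table. The array with the FGFR inhibitor had the lowest log2 ratio for 15 of the 35 genes, or 42.9%, compared with 28% of all genes. Large and small subunits had medians of -0.12 and -0.09 with the FGFR inhibitor, both negative in all 11 alternatives. These medians ran from -0.12 to -0.07 and from -0.09 to -0.03.

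Mrpl43, a large subunit protein, had log2 ratios of -0.73 on the control array, -0.52 with the FGFR inhibitor, -0.34 with the MEK inhibitor and -0.32 with the GSK inhibitor. The control array was the low one. The log2 fold changes were 0.20, 0.39 and 0.41. Mrpl49, also of the large subunit, had log2 ratios of -0.39, -0.11, -0.36 and 0.02 on the same arrays, higher with the FGFR and GSK inhibitors than on the other arrays.

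Mrps14, a small subunit protein, had log2 ratios of 1.5 on the control array, 1.30 with the FGFR inhibitor, 1.22 with the MEK inhibitor and 1.12 with the GSK inhibitor. It was lower on all 3 inhibitor arrays, with log2 fold changes of -0.20, -0.28 and -0.38. Mrps9 had log2 ratios of 0.07, -0.23, -0.07 and 0.13 on the control, FGFR, MEK and GSK inhibitor arrays. The low array for Mrps9 was thus that with the FGFR inhibitor, at a log2 fold change of -0.29.

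The remaining extremes of the mitochondrial ribosome did not pass 1.5-fold. With the FGFR inhibitor, Mrpl4 had a log2 fold change of -0.25 and Mrpl54 one of 0.25. With the MEK inhibitor, Mrpl40 had -0.26 and Mrps15 had 0.20, and with the GSK inhibitor Mrps10 had -0.27.

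The ribosomes differed in how the GSK and FGFR inhibitor arrays compared with each other, a comparison added after the values were seen that does not use the control array. The median log2 difference, GSK minus FGFR inhibitor, was -0.19 for the cytosolic ribosome and 0.12 for the mitochondrial ribosome. In the former 23 of 26 genes were below 0, against 46.8% of all genes and 41.2% of others of the same table. In the latter 25 of 35, or 71.4%, were above 0, against 53.2% of all genes and 58.8% of those others. Both medians kept their sign in all 10 alternatives. The factors had a median of -0.03, which kept its sign in 7 of 10 alternatives, all genes one of 0.02 and the other genes of the same table one of 0.04.

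The factors as a class had medians near 0. Their median log2 fold change was -0.01 with the FGFR inhibitor, -0.04 with the MEK inhibitor and -0.05 with the GSK inhibitor, and these kept their sign in 8, 9 and 10 of 12 alternatives. The array with the GSK inhibitor had the lowest log2 ratio for 10 of the 23 factors, or 43.5%, compared with 28.7% of all genes and 25.5% of the other genes of the same table. The control array had the highest for 10 of the 23 as well, compared with 28.6% of all genes.

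eIF2B, the exchange factor that reloads eIF2 with GTP, was measured through Eif2b1, Eif2b2, Eif2b4 and Eif2b5. The median log2 fold change of these 4 subunits was -0.04, -0.09 and 0.14 with the FGFR, MEK and GSK inhibitors, with the sign kept in 9, 10 and 11 of 11 alternatives. All 4 had a higher log2 ratio with the GSK inhibitor than with the FGFR inhibitor. The same held for 53.2% of all genes and 58.8% of the other genes of the same table. For 3 of the 4 subunits the array with the GSK inhibitor was the highest of all. That array was the highest for 31.4% of all genes and 38.8% of the other genes of the same table. Eif2b4 had log2 fold changes of 0.10, -0.06 and 0.25, and Eif2b1 had -0.12, -0.15 and -0.03.

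eIF3, the multi-subunit scaffold that binds the small ribosomal subunit, was measured through Eif3b, Eif3c, Eif3d, Eif3e, Eif3f, Eif3g, Eif3h and Eif3i. Medians over these 8 were -0.03, 0.03 and -0.07 with the FGFR, MEK and GSK inhibitors, and subunits lay on both sides of 0 each time, while the median turned its sign in 1 of 11 alternatives, with the GSK inhibitor under median centring. Eif3b had log2 ratios of 2.25, 2.03, 2.11 and 2.01 on the control, FGFR, MEK and GSK inhibitor arrays, highest on the control array. Eif3e had a log2 fold change of 0.22 with the FGFR inhibitor, and Eif3f had 0.22 with the MEK inhibitor.

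The eIF4 group was measured through 7 genes. They encode factors that bind the cap of the message and unwind its start, and the regulators Eif4ebp2 and Eif4enif1. Medians of the group were 0.02, -0.08 and -0.12 with the FGFR, MEK and GSK inhibitors. Their sign was kept in 10, 10 and 11 of 11 alternatives. With the GSK inhibitor the median ran from -0.12 to -0.01, the latter under median centring. Eif4a2, a helicase close to Eif4a1, had log2 ratios of 0.01 on the control array, 0.11 with the FGFR inhibitor, -0.04 with the MEK inhibitor and -0.53 with the GSK inhibitor. The array with the GSK inhibitor stood apart below the others, at a log2 fold change of -0.54 that ran from -0.55 to -0.40 over the alternatives. Eif4a1 had -0.26 in the same comparison.

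Eif4e2, a cap-binding relative of Eif4e that represses translation, had log2 ratios of 1.36 on the control array, 1.75 with the FGFR inhibitor, 1.53 with the MEK inhibitor and 1.72 with the GSK inhibitor. The control array was lowest, and the log2 fold changes were 0.39, 0.17 and 0.36. Its probe was dim, with a Cy3 signal of 225.1 units on the control array. Eif4e, the main cap-binding protein, had log2 fold changes of 0.02, -0.08 and -0.01.

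Of the proteins that control Eif4e, Eif4ebp2, a target of TOR that holds it inactive, had log2 fold changes of -0.19, -0.11 and -0.12 with the FGFR, MEK and GSK inhibitors. Eif4enif1, which carries Eif4e into the nucleus and had a dim probe (Cy3 of 121.1 units on the control array), had -0.16, -0.13 and -0.25. Eif4b, a cofactor of the helicase, had 0.04, 0.01 and -0.05. The first 2 lay below 0 on all inhibitor arrays, within 1.5-fold.

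Outside these complexes, Eif5 had log2 ratios of 1.58 on the control array and 1.30, 1.41 and 1.39 with the FGFR, MEK and GSK inhibitors, highest in the control. Eef1b2 had log2 fold changes of -0.14, -0.02 and -0.33. Eif2s3y, the Y-linked gene of the largest eIF2 subunit, had 0.22, 0.07 and -0.12, so its highest log2 ratio was with the FGFR inhibitor and its lowest with the GSK inhibitor.

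Promoters were looked up in RefSeq (GRCm38.p6), as windows of 300 bases that lie mostly before the annotated start. Of the 85 genes 74 matched, with 84 windows. Rpl3, Rpl36, Rpl7, Rps14, Mrpl15, Mrpl4, Mrpl54, Eif3e, Eif3h and Eif3i had no entry. The 5 motifs were searched on both strands, as exact letters, along with a pyrimidine tract at the start on the sense strand, defined as a C within 5 bases of the annotated start followed by 4 bases that are C or T. Shares are of genes with a match in any of their windows. A match describes the letters only, and binding was not measured.

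The tract was present in 47.6% of the genes of the cytosolic ribosome, 25% of those of the mitochondrial ribosome and 30% of the factors, compared with 21.2% of all 27025 genes in the promoter table. It is shown in capitals for some large subunit genes of the cytosolic ribosome, and was also found in Rpl14, Rpl31 and Rpl7a. A match to these letters does not show control by TOR, which was not measured. Rpl13a lies at chr7:45128728-45128757 on the minus strand, Rpl35 at chr2:39005114-39005143 on the minus strand, Rpl35a at chr16:33056470-33056499, Rpl18 at chr7:45718059-45718088 and Rpl22l1 at chr3:28805496-28805525, the last 3 on the plus strand.
Rpl13a: accctgcgacaagaCCTCCTCCTTTCCCag
Rpl35: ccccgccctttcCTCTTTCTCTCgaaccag
Rpl35a: gggcttgccttcCTCTTTCCgccatcttgg
Rpl18: gtctcgcaggccgCTCTTTCCCCgcccact
Rpl22l1: cggcgcaagcccgttCTCTTCCCacggctg

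CCGGAAG, the core letters bound by GABP and other ETS factors, was found in 39.2% of the 74 genes, against 9.93% of all genes in the promoter table. The shares were 33.3% for the cytosolic ribosome, 40.6% for the mitochondrial ribosome and 45% for the factors. The motif was also found in 32% of the other genes of the table ordered by responsiveness, of which 79.5% had an entry under their symbol or a synonym. That is under the 80% required here, so for every motif the comparison with those genes is void, and no excess over genes found in the same way is shown. It is shown in capitals, or as its reverse complement CTTCCGG for Rps7, for a gene of each class and for Rpl41: Rps7 at chr12:28635949-28635978 (minus strand), Rpl41 at chr10:128549206-128549235 (minus), Mrpl43 at chr19:45006480-45006509 (minus) and Eif4e2 at chr1:87213905-87213934 (plus).
Rps7: tttcagaagagCTTCCGGtttccacccacc
Rpl41: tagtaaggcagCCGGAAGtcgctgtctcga
Mrpl43: tcgcggtgactCCGGAAGcaaaactctcca
Eif4e2: tcgccagccaaCCGGAAGtagccgggccct

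AAGATGGC, letters bound by YY1, was found in 9.52% of the genes of the cytosolic ribosome, 15.6% of those of the mitochondrial ribosome and 20% of the factors, against 3.19% of all genes in the promoter table. GCATGCGC, letters bound by NRF1, a factor of nuclear genes for mitochondria, was found in 15.6% of the genes of the mitochondrial ribosome, 4.76% of those of the cytosolic ribosome and 0 of the factors, against 3.05% of all genes. The shares among the other genes of the ordered table that had an entry are given without comparison, which is void as stated for CCGGAAG. They were 8.47% for AAGATGGC, 8.34% for GCATGCGC and 22.7% for the pyrimidine tract. CACGTG, an E-box, was found in 8.11% of the 74 genes, 8.09% of all genes and 12.7% of those other genes. TATAAA was found in 8.11% of the 74 genes, 15.7% of all genes and 7.29% of those other genes. Examples in capitals are AAGATGGC in Rpl13a at chr7:45128699-45128728 (minus) and Mrps18a at chr17:46111004-46111033 (plus), GCATGCGC in Mrpl9 at chr3:94443299-94443328 (plus), and TATAAA in Rpl22l1 at chr3:28805468-28805497 (plus).
Rpl13a: ggcggctgccgAAGATGGCggaggggcagg
Mrps18a: aggtgcgttccAAGATGGCggccctcaggg
Mrpl9: ggcgcagctgcGCATGCGCggggtccttct
Rpl22l1: agcacgtttttaTATAAAagcgtgcgtgcg

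The 85 genes lie on 20 chromosomes, and the median GC content of their probes, 45%, equals that of all genes. Other genes of translation were also measured, and 0 genes of any of these lists passed 1.5-fold. The 8 cytosolic tRNA synthetases, which charge tRNAs, had median log2 fold changes of -0.21, -0.12 and -0.17 with the FGFR, MEK and GSK inhibitors, negative in all 11 alternatives but for 0.02 with the MEK inhibitor under median centring. They ran from Farsb at -0.43 to Qars at 0.21 with the GSK inhibitor, the latter with a dim probe (Cy3 of 256.6 units on the control array). The 9 mitochondrial synthetases and initiation factors had medians of -0.10, -0.03 and 0.01, which kept their sign in 11, 10 and 9 of 11 alternatives, with Mtif3 highest at 0.30 with the GSK inhibitor.

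The 6 genes of termination, recycling and reinitiation had medians of -0.17, -0.11 and -0.11 with the FGFR, MEK and GSK inhibitors, the latter 2 of which turned their sign in 1 of 11 alternatives each. Mcts1, a reinitiation factor, had log2 fold changes of -0.38, -0.32 and -0.31, and Gspt2, a release factor, had 0.15, 0.15 and 0.50. The 17 genes of ribosome biogenesis had medians of -0.07, -0.08 and -0.04, the latter 2 of which turned their sign in 1 of 11 alternatives each. Ncl (nucleolin) was lowest at -0.53 with the GSK inhibitor and Nol11 lowest at -0.41 with the FGFR inhibitor. The probe of Ncl was dim, with a Cy3 signal of 235.0 units on the control array. The 8 genes of the TOR pathway and translational regulators had medians of 0.01, -0.00 and 0.08, which kept their sign in 9, 4 and 11 of 11 alternatives, and Frap1, the TOR kinase itself, had 0.24, 0.23 and 0.21.

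The 4 ribosomal proteins that carry other symbols had medians of -0.03, 0.04 and -0.04, which kept their sign in 10, 11 and 10 of 11 alternatives, with Arbp, the stalk protein of the large subunit, at -0.26 with the GSK inhibitor. The 3 housekeeping genes had medians of -0.15, -0.14 and -0.13, the second of which turned to 0.05 under median centring, with Ppia at -0.41 with the GSK inhibitor and Actb at 0.19 with the MEK inhibitor.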

How the data were processed

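The authors deposited scanner output with spot and background intensity in both channels, and a log10 table of 1 value per gene. From the values, that deposited log10 table is the processed log10 ratio plus the mean log10 reference signal. Mean intensity was background-corrected by normexp (offset 50), normalized by loess within arrays and averaged per probe in limma 3.58.1 (R 4.3.3), without control and outlier spots. A change was called at 1.5-fold where the Cy3 signal of the gene exceeded background clearly on each array compared. Summaries used Python 3.11.15, numpy 2.4.6 and pandas 2.3.3, with figures in matplotlib 3.10.9. The steps were tested on simulated arrays. Named genes are Rpl13a, those past 1.5-fold, the 2 highest and 2 lowest per class and inhibitor, the 3 highest and 3 lowest ratios to the reference, members of complexes and some paralogs and regulators. Of other lists they are the extremes. The members and lists were chosen with earlier results of these data known, and the subunit split and the direct comparison of the GSK and FGFR inhibitors were made after the values were seen.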

Additional observations from a re-analysis of the deposited data

How the results depend on the processing

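Each condition has 1 array and all lay on 1 slide, so no pairing, slide block or left-out array could be tried. The check of probes against proteins was not run. Of 139 values of the medians and ratios of the 3 classes under an alternative, 113 moved by less than the spread of the reference channel. However, the filters on background and the scaling between arrays leave ratios of these bright genes as they are by construction. The deposited log10 table also nearly repeats the fold changes of the processed signals. The 113 and the counts of alternatives that kept a sign are raised by this. Individual genes are less secure: under median centring 31 of 85 changed sign with the MEK inhibitor, and in Cy3 alone 21 with the GSK inhibitor. The cause of the shifts was not tested.

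Under median centring, the median log2 fold change with the MEK inhibitor was 0.096 for the cytosolic ribosome, 0.101 for the mitochondrial ribosome and 0.094 for the factors, beside 0.102 for all genes. With the GSK inhibitor it was -0.037, 0.127 and 0.047 in the same order, and -0.051 for the mitochondrial ribosome with the FGFR inhibitor. The ratios to the reference were -0.244, -0.190 and 0.310. With processed signals the ratio was 0.434 for the cytosolic ribosome and 0.985 for the factors.

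Genes not named through the ordered table (2, 4 and 2 per class) gave -0.108, -0.136 and -0.080 with the FGFR, MEK and GSK inhibitors and a ratio of 0.836 for the cytosolic ribosome. For the mitochondrial ribosome they gave -0.151 and -0.082 with the MEK and GSK inhibitors and a ratio of 0.784. The factors had 0.123, 0.073 and 0.015, with a ratio of 0.486. Without Rpl22l1 and Rps27l the ratio of the cytosolic ribosome was 0.251. As means in place of medians, the ratios of the ribosomes were 0.088 and 0.264.

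The number of genes past 1.5-fold with the GSK inhibitor was 2. It was 0 with processed signals and with the deposited log10 table, and 1 under median centring, in Cy3 alone and relative to genes of like signal. At 2-fold it was 0. At a log2 threshold of 0.322 the counts were 1, 1 and 13 with the FGFR, MEK and GSK inhibitors.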
